A study of Homo sapiens with 102 samples.

Results

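CENP-A placement was compared between 6 human artificial chromosome (HAC) lines grown without treatment. Each line gave 1 CENP-A ChIP library, and these 6 of the 102 libraries of the series were taken by their line, antibody and treatment labels. The lines were HAC 1-20, HAC 1-8, HAC 4-2, HAC 4-65, HAC 3-6 and HAC 4-49. All were kept in HT1080, an established human fibrosarcoma cell line, each line is a clone picked from a colony, and all 6 libraries were made with the CENP-A antibody A1. The HACs were built from synthetic alphoid units of about 2 kb, each with a short position code of its own. HAC 1-20 and HAC 1-8 came from a construct with CenU codes T065 to T128, 64 codes in all. HAC 4-2, HAC 4-65, HAC 3-6 and HAC 4-49 came from a construct with CenU codes T001 to T096, 96 codes in all. NCU codes L001 to L096 were taken for every line. Because only the codes were amplified and counted, markers of the host cell were not measured.

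CENP-A is the histone H3 variant that replaces H3 in the nucleosomes of active centromeres and serves as the platform on which the kinetochore forms. Alphoid DNA is the repeat of human centromeres, and the CENP-B box in it is the binding site of the protein CENP-B. CenU units carry CENP-B boxes and tetO sites, while in NCU units the CENP-B boxes are mutated and LacO sites are present. CENP-A chromatin is kept through cell division at the place where it lies, so that a centromere stays in place although most of its repeat array lacks CENP-A.

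A code is 23 bases long. The codes below are those on which the comparison turns, as given in the study's list of position codes. Capitals mark the base at position 4, which is G in CenU and C in NCU codes, and the 6 variable bases. T036 and T091 had the most CENP-A reads of CenU codes in lines of the longer construct, T020, T075 and T100 in HAC 4-2, HAC 1-20 and HAC 1-8, and T088 and T096 had fewer reads than the codes next to them in most lines:
T020: gggGaaaaATcccACtttACggg
T036: gggGaaaaAGcccACtttACggg
T075: gggGaaaaTAcccGGtttGGggg
T088: gggGaaaaTTcccTCtttTCggg
T091: gggGaaaaTTcccGGtttGGggg
T096: gggGaaaaTTcccCCtttCCggg
T100: gggGaaaaTGcccACtttACggg

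The NCU codes that follow were the richest of their line (L039 for HAC 1-20, L073 in HAC 1-8 together with another code, L068 in HAC 4-2, L093 for HAC 4-65, L043 in HAC 3-6 and L087 in HAC 4-49), and L096 is the last NCU code:
L039: gggCaaaaAGcccTGtttTGggg
L043: gggCaaaaAGcccGGtttGGggg
L068: gggCaaaaTAcccACtttACggg
L073: gggCaaaaTAcccGAtttGAggg
L087: gggCaaaaTTcccTGtttTGggg
L093: gggCaaaaTTcccCAtttCAggg
L096: gggCaaaaTTcccCCtttCCggg

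The code numbers follow the order of the units in the input construct, not their order in the HAC. A read share also grows with the number of copies of a code, and no input DNA was used. The libraries used for HAC 1-8, HAC 4-2, HAC 3-6 and HAC 4-49 are therefore limited. In them a code that is lacking or in few copies cannot be told from a code present without CENP-A. The paper estimated the copies of each CenU code from genomic DNA, and those estimates were not used here. For both HAC 4-65 and HAC 1-20 the reads of 6 histone modifications in untreated cells served as a proxy of copy number. This proxy is not neutral to CENP-A. The paper reports positive correlations with CENP-A for H4K8ac, H4K20me1, H3K4me2 and H3K14ac, and negative ones for H3K9me3 and H3K36me2. A density can therefore be shifted where the modifications follow CENP-A. CENP-A reads were divided by the geometric mean of these reads to give a density, taken relative to its mean over the codes with a geometric mean of at least 10 reads (61 of 64 in HAC 1-20 and 96 of 96 in HAC 4-65). Matched reads were 60250 in HAC 1-20, 8471 for HAC 1-8, 24680 in HAC 4-2, 144641 in HAC 4-65, 1229291 for HAC 3-6 and 1360701 in HAC 4-49. HAC 1-8 was thus the shallowest and its values the least precise. With 1 library per line no test between lines was possible, and the exact binomial (Clopper-Pearson) 95% intervals in brackets cover counting error only. CenU codes outside the construct of a line, T001 left out because its name is in doubt, took 0.190% to 2.60% of matched reads, the largest share in HAC 1-8. With T001 the share was 2.86% in HAC 1-8 and 1.90% in place of 1.04% in HAC 1-20.

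CENP-A reads fell mainly on CenU codes in 5 of the lines and about equally on CenU and NCU codes in HAC 4-49. The CenU share of matched CENP-A reads was 94.5% (94.5 to 94.6) in HAC 3-6, 91.6% (91.5 to 91.8) for HAC 4-65, 86.5% (86.3 to 86.8) in HAC 1-20, 80.8% (80.3 to 81.2) in HAC 4-2 and 79.8% (78.9 to 80.6) for HAC 1-8. In HAC 4-49 it was 46.02% (45.9 to 46.1). The intervals of HAC 4-2 and HAC 1-8 overlap, and those of all other neighbours in this order are separate. They cover counting error only, and in siControl libraries the share was 84.6% in HAC 4-65 and 80.6% in HAC 1-20. The order of the 5 lines above HAC 4-49 is thus not settled by these intervals. A share of reads depends on the copies of both kinds as well as on CENP-A, and the copies in HAC 4-49 were not measured in the libraries used. The paper estimated CenU and NCU copies per cell by quantitative PCR. Its CENP-A ChIP, also measured by quantitative PCR, found significant recovery for CenU and none for NCU in each of the 6 lines. Those values were not used here. These shares leave out unmatched reads, 8.33% to 19.2% of the total.

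Within CenU, CENP-A reads were bunched in runs of neighbouring codes whose place differed between lines. The even share of a line is the mean of its CenU reads per code of the construct, 1.56% of CenU reads for 64 codes and 1.04% for 96. In HAC 1-20, 32 of 64 codes were at or above it (50%), in HAC 1-8 36 of 64 (56.2%), for HAC 4-2 41 of 96 (42.7%), in HAC 4-65 37 of 96 (38.5%), in HAC 3-6 34 of 96 (35.4%) and for HAC 4-49 47 of 96 (49%). These codes held 78.2% of CenU reads in HAC 1-8, 82.9% for HAC 4-65, 83.0% in HAC 1-20, 85.6% in HAC 4-49, 85.7% for HAC 4-2 and 93.4% in HAC 3-6. HAC 3-6 thus put the largest part of its CenU reads on the smallest part of its codes, and HAC 1-8 was the most even.

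**Figure D1:**
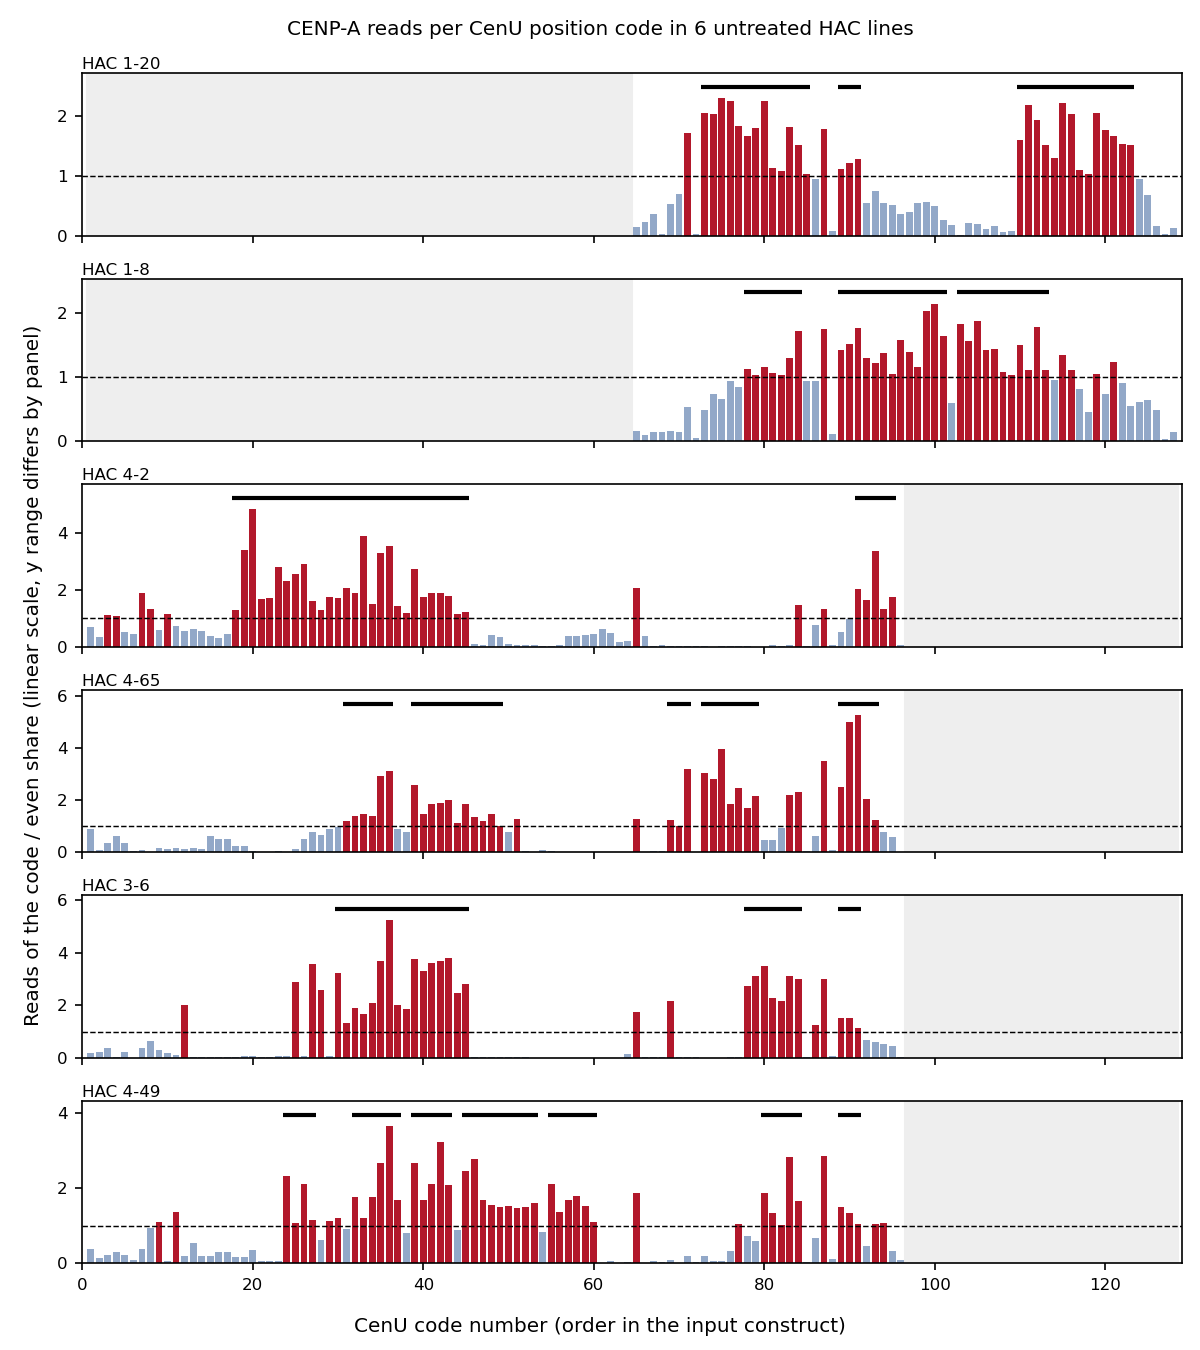
CENP-A reads per CenU code in each of the 6 lines, as a multiple of the even share (y axis, linear, range differs by panel) against the code number (x axis). Red bars are at or above the even share (dashed line), black lines mark runs of 3 or more such codes, and grey areas are codes outside the construct. The longest run is T110 to T123 in HAC 1-20, T089 to T101 for HAC 1-8, T018 to T045 in HAC 4-2, T039 to T049 in HAC 4-65, T030 to T045 for HAC 3-6 and T045 to T053 in HAC 4-49.

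The effective number of codes, the exponential of the Shannon entropy of the read shares, equals the number of codes if all are equal and falls as reads concentrate. It was 40.1 of 96 CenU codes in HAC 3-6 (41.8%), 52.2 for HAC 4-65 (54.4%), 55.6 in HAC 4-2 (57.9%) and 63.6 in HAC 4-49 (66.3%). In the lines with 64 codes it was 46.6 in HAC 1-20 (72.9%) and 53.7 in HAC 1-8 (83.9%). The number of codes that held 50% of CenU reads was 14 in HAC 3-6, 16 for HAC 4-65, 17 in HAC 1-20, 18 in HAC 4-2, 20 for HAC 1-8 and 21 in HAC 4-49. HAC 4-49 had the largest NCU share of CENP-A reads. It also had the widest spread of reads over CenU of the lines with 96 codes.

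HAC 1-20 held CENP-A in separate blocks with a poor stretch between them. The runs at or above the even share were T073 to T085 (13 codes, 35.5% of CenU reads), T089 to T091 (3 codes, 5.62%) and T110 to T123 (14 codes, 36.5%). The richest codes were T075 with 1827 reads, T076 and T080 with 1786 each, T115 with 1756 and T111 with 1727, so both long runs held codes at more than 2 times the even share. The poorest were T103 with 11 reads, T072 with 17, T068 with 22, T127 with 27 and T108 with 52. Of these, T103 and T108 lie in the stretch between the runs. T103, T072, T127 and T068 also had few histone modification reads, 4.03, 8.62, 3.84 and 17.8 by geometric mean. These are within the 3.88 to 18.7 of codes outside the construct or below it, while T108 had 130.4.

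HAC 1-8, from the same construct, filled the stretch that was poor in HAC 1-20. Its runs were T078 to T084 (7 codes, 13.1% of CenU reads), T089 to T101 (13 codes, 30.5%) and T103 to T113 (11 codes, 24.5%). T100 was richest with 218 reads, followed by T099 with 206, T105 with 190, T103 with 185 and T112 with 181. T105, with 1.87 times the even share here, had 0.184 times in HAC 1-20. The fewest reads were on T127 with 4, T072 with 5, T066 with 10, T088 with 12 and T067 with 14.

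The stretch from T094 to T109 shows the contrast. It makes up 25% of the 64 codes and held 7.24% (7.02 to 7.47) of CenU reads in HAC 1-20 and 36.1% (34.9 to 37.3) in HAC 1-8. None of its 16 codes reached the even share in HAC 1-20, and 15 of 16 did in HAC 1-8. In HAC 1-20, 15 of the 16 codes had enough histone modification reads for a density, all but T103, and it was 0.0721 to 0.664 times the mean. T104 to T109 had 112.0 to 233.1 histone modification reads, against a median of 151.9 over all codes, and a density of 0.0721 to 0.149. T110 to T123, the longest run of HAC 1-20, held 36.5% (36.1 to 36.9) there and 22.8% (21.8 to 23.9) in HAC 1-8, against an even part of 21.9%. The 2 lines shared 19 codes at or above the even share, and 15 codes were below it in both. The shared codes were 59.4% of those of HAC 1-20, against 56.2% of all 64 codes so called in HAC 1-8. They were 52.8% of those of HAC 1-8, against 50% of all 64 codes so called in HAC 1-20. The shared parts were thus near the parts over all codes. These stretches were chosen after their values were seen.

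HAC 4-2 had the longest unbroken run at or above the even share. With 1 code below it allowed, the longest run was 37 codes in HAC 4-49 and 30 in HAC 1-8 against 28 here, and at 1.5 times the even share it was 14 in HAC 3-6 against 9 here. T018 to T045, 28 codes in a row, held 63.4% (62.7 to 64.03) of its CenU reads, and T091 to T095 held another 10.5%. The most reads were on T020 with 998, T033 with 803, T036 with 727, T019 with 701 and T093 with 692. The fewest were on T080 with 0, T074 and T079 with 1 each, and T054 and T072 with 2 each. The upper 95% bound for T080 was 0.0186% of CenU reads.

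HAC 4-65 had 5 runs, in separate parts of the construct. They were T031 to T036 (12.0% of CenU reads), T039 to T049 (18.5%), T069 to T071 (5.70%), T073 to T079 (18.8%) and T089 to T093 (16.8%). T091 was richest with 7277 reads and T090 next with 6906, followed by T075 with 5467, T087 with 4824 and T071 with 4418. All 5 lie above T064, in the part of the numbering that both constructs hold. The poorest were T060 with 2 reads, T053 and T057 with 5 each, T064 with 9 and T063 with 13.

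HAC 3-6 had the most concentrated CenU reads by the effective number of codes. T030 to T045 held 48.4% (48.3 to 48.5) of CenU reads in 16 codes, T078 to T084 held 20.7% in 7 codes, and T089 to T091 held 4.33%. T036 was richest with 63276 reads, followed by T043 with 46020, T039 with 45318, T035 with 44649 and T042 with 44545. T055 was poorest with 45, followed by T053 with 50, T054 with 53, T061 with 64 and T063 with 71. The richest code had 1406 times the reads of the poorest, less than in HAC 4-65, where that ratio was 3639 over a poorest code of 2 reads.

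HAC 4-49 had the most runs, 7, and the shortest longest run. They were T024 to T027 (6.94% of CenU reads), T032 to T037 (13.3%), T039 to T043 (12.3%), T045 to T053 (16.7%), T055 to T060 (9.99%), T080 to T084 (9.10%) and T089 to T091 (4.05%). Most of these are close together, and when 1 code below the even share was allowed inside a run the longest became 37 codes. T036 was richest with 23778 reads, followed by T042 with 20998, T087 with 18555, T083 with 18348 and T046 with 18039. The poorest was T070 with 47 reads, and T063, T066 and T061 followed with 93, 107 and 121.

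**Figure D2:**
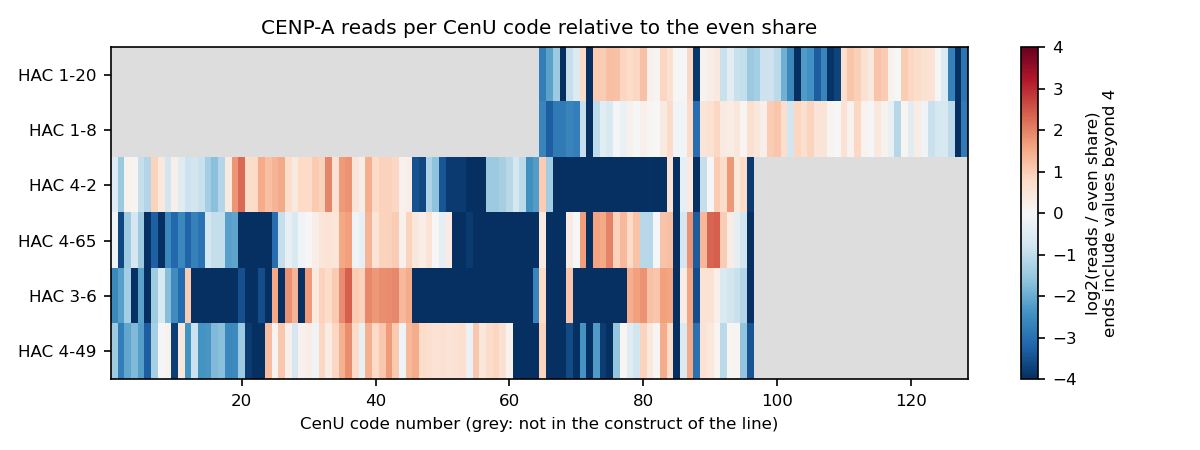
log2 of CENP-A reads over the even share for each CenU code (x axis, code number) in each line (y axis). Red is above and blue below the even share, with values beyond 4 in the end colours, and grey codes are not in the construct of the line. The 4 lines of the longer construct are all red over most of T030 to T045 and differ at T046 to T064, where HAC 4-49 is red and HAC 3-6 dark blue.

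The 4 lines with 96 codes met in 1 part of the construct. Of the 16 codes T030 to T045, 11 were at or above the even share in all 4 lines, namely T032 to T036, T039 to T043 and T045. This stretch, which is 16.7% of the codes, held 34.2% (33.5 to 34.8) of CenU reads in HAC 4-2, 28.1% (27.8 to 28.3) for HAC 4-65, 48.4% in HAC 3-6 and 32.2% (32.04 to 32.3) in HAC 4-49. All 16 codes of HAC 4-2 and of HAC 3-6 were at or above the even share, and in HAC 4-65 and HAC 4-49 13 of 16 were. By density all 11 codes were above the mean in HAC 4-65, at 1.70 to 3.47 times it. T036 was the richest code of HAC 3-6 and HAC 4-49 and among the 5 richest of HAC 4-2.

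Over the whole construct 15 codes were at or above the even share in all 4 lines, the other 4 being T065, T084, T087 and T091. A total of 21 codes were below it in all 4. Of these, 9 lie in T001 to T017 (T001, T002, T005, T006 and T013 to T017) and 7 in T061 to T068 (T061 to T064 and T066 to T068), and the rest are T054, T072, T085, T088 and T096. The remaining 60 codes were at or above the even share in some lines and below it in others, 31 of them in 1 line, 19 in 2 and 10 in 3.

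Beyond T045 the lines parted. T046 to T064, 19.8% of the codes, held 25.2% (25.1 to 25.3) of CenU reads in HAC 4-49, 7.70% (7.55 to 7.84) for HAC 4-65, 4.55% (4.26 to 4.85) in HAC 4-2 and 0.428% (0.416 to 0.440) for HAC 3-6. In HAC 4-49, 14 of these 19 codes reached the even share, in HAC 4-65 5 did, and in HAC 4-2 and HAC 3-6 none did. At the border itself, reads fell from 250 on T045 to 18 on T046 in HAC 4-2 and from 34145 to 496 in HAC 3-6. The long runs of these 2 lines thus ended at the same code. In HAC 4-49 T046 was among the 5 richest codes.

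T070 to T077 and T078 to T084 were rich in different sets of lines. T070 to T077, 8.33% of the longer construct, held 19.2% (18.99 to 19.4) of CenU reads in HAC 4-65, 2.05% (2.02 to 2.09) for HAC 4-49, 0.121% (0.0774 to 0.180) in HAC 4-2 and 0.100% (0.0944 to 0.106) for HAC 3-6. In the shorter construct, where it is 12.5% of the codes, it held 20.1% (19.8 to 20.5) in HAC 1-20 and 6.84% (6.24 to 7.48) for HAC 1-8. The next 7 codes, T078 to T084, held 20.7% (20.6 to 20.8) in HAC 3-6, 17.5% (17.2 to 17.9) for HAC 1-20, 13.1% (12.3 to 13.9) in HAC 1-8, 10.7% (10.5 to 10.8) in HAC 4-65 and 10.5% (10.4 to 10.6) for HAC 4-49, but 1.70% (1.53 to 1.89) in HAC 4-2. Exactly these 7 codes made up a run in HAC 1-8 and in HAC 3-6, and they lay inside the run T073 to T085 of HAC 1-20. By density all 7 were above the mean in HAC 1-20, at 1.17 to 2.84 times it, but 2 of 7 in HAC 4-65.

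T089 to T091 had high read shares in lines of both constructs. All 3 codes were at or above the even share in 5 lines, in HAC 4-2 1 was, and in HAC 1-20, HAC 3-6 and HAC 4-49 these 3 codes made up a run of their own. They held 13.4% of CenU reads in HAC 4-65, which is 4.28 times the even share per code, 7.35% for HAC 1-8, 5.62% in HAC 1-20, 4.33% in HAC 3-6, 4.05% for HAC 4-49 and 3.67% in HAC 4-2. Over T065 to T096, the 32 codes that both constructs hold, T084, T087 and T091 were at or above the even share in all 6 lines, and T066 to T068, T072 and T088 were below it in all 6.

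Divided by the copy proxy, these shared calls were lost in part. In HAC 1-20 the density of T089, T090 and T091 was 0.731, 0.760 and 0.961 times the mean, so none of the 3 reached it. In HAC 4-65 T089 and T091 did, at 1.13 and 1.19, and T090 did not, at 0.861. T087 was at 0.703 in HAC 1-20 and 0.6998 in HAC 4-65, and T084 at 1.36 in HAC 1-20 but 0.786 in HAC 4-65. None of T084, T087 and T091 was above the mean density in both lines.

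Some codes had no more reads than the richest code outside the construct. The codes at or below the richest outside code numbered 3 in HAC 1-20, 3 for HAC 1-8, 20 in HAC 4-2, 18 in HAC 4-65, 15 for HAC 3-6 and 17 in HAC 4-49. They formed unbroken gaps at T054 to T056 and T067 to T080 in HAC 4-2, at T056 to T064 for HAC 4-65, at T053 to T063 and T073 to T075 in HAC 3-6, and at T021 to T023, T061 to T064 and T066 to T070 in HAC 4-49. T067 to T080 in HAC 4-2 was the longest, with 14 codes of 0 to 10 reads. All gaps of 3 or more codes were in lines of the longer construct. The cut rests on 1 outside code per line. In HAC 4-49 that code was T107 with 566 reads, against a median of 45.5 over the outside codes. The gap T021 to T023 of that line had 378 to 458 reads, so it depends on T107. In HAC 4-65 the gap codes T056 to T064 also had few histone modification reads, 20.7 to 44.2 by geometric mean, against 2.89 to 22.5 on codes outside the construct and a median of 632.8 over all codes. Other poor codes of that line did not, as T002 to T014 had 418.8 to 2260 such reads with a CENP-A density of 0.0292 to 0.278. In the 3 other lines the libraries used cannot tell absence from the HAC from presence without CENP-A.

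Sharp edges in reads between neighbours were common. Steps of 8-fold or more numbered 5 of 63 neighbour pairs in HAC 1-8, 9 of 63 for HAC 1-20, and 10, 11, 15 and 22 of 95 in HAC 4-2, HAC 4-49, HAC 4-65 and HAC 3-6. Most occurred in 1 line, but the fall from T087 to T088 and the rise from T088 to T089 were seen in 6 of 6 lines. The 4 lines of the longer construct also shared the rise from T064 to T065, the fall from T084 to T085 and the rise from T085 to T086. By density these steps were smaller in both lines with a copy proxy. T087, T088 and T089 were at 0.703, 0.445 and 0.731 in HAC 1-20 and at 0.6998, 0.383 and 1.13 in HAC 4-65. T064 and T065 were at 0.216 and 0.382 in HAC 4-65, and T084, T085 and T086 at 0.786, 0.248 and 0.383. Histone modification reads of T088 were 22.3 in HAC 1-20 and 230.6 in HAC 4-65, against 360.0 and 4462 on T087.

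T088 thus had few CENP-A reads in every line, between codes that mostly had many. Its reads were 55 in HAC 1-20, 12 for HAC 1-8, 10 in HAC 4-2, 136 in HAC 4-65, 1028 for HAC 3-6 and 816 in HAC 4-49, between 0.0483 and 0.126 times the even share. Over 13 libraries each of HAC 1-20 and HAC 4-65 (CENP-A in 7 conditions and the 6 histone modifications), T088 held at most 0.343% and 0.448% of CenU reads. T085 differed by construct, with 1.03 and 0.933 times the even share in HAC 1-20 and HAC 1-8 and 0.0175 to 0.0305 times in the 4 other lines.

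T096, the last CenU code of the longer construct, was poorer in the lines of that construct than in the others. It had 14 reads in HAC 4-2, 41 for HAC 4-65, 325 in HAC 3-6 and 588 in HAC 4-49, which is 0.0269 to 0.0905 times the even share. In HAC 1-20 and HAC 1-8, where T096 is inside the construct, it had 284 and 160 reads, 0.356 and 1.57 times the even share. L096, the last NCU code, had 5, 11, 0, 9, 87 and 274 reads in HAC 1-20, HAC 1-8, HAC 4-2, HAC 4-65, HAC 3-6 and HAC 4-49, at most 0.664 times the even NCU share. Of the 27 bases of the common reverse primer, 25 were found at the start of the unit sequence, and a last unit has no next unit in the construct. The part of this in the low reads was not tested.

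T001 and T072 carry a doubt of their own. In the study's list, 2 of 222 primers do not hold the sequence given for their code, and these are the primers of T001 and T072, each of which holds the sequence listed for the other. T001 had 517 reads in HAC 1-20 and 22 in HAC 1-8, whose construct starts at T065, while the richest of the other 63 outside codes had 25 and 10. T072, inside that construct, had 17 and 5. In the longer construct T001 had 146, 1213, 2037 and 2437 reads in HAC 4-2, HAC 4-65, HAC 3-6 and HAC 4-49, and T072 had 2, 33, 187 and 192. T001 was closer in reads to T071 and T073 than T072 was in HAC 1-20 (1368 and 1633 reads on these) and in HAC 4-65 (4418 and 4176). In HAC 4-2, by contrast, T071 and T073 had 7 and 3 reads and T002, the neighbour of T001, had 74, and HAC 3-6 had 176, 125 and 2660 on the same codes, nearer to the names as given. Both names stayed below the even share in all 6 lines, so exchanging them moves no code across it, but it would put a code of 146 reads into the gap T067 to T080 of HAC 4-2. Which name is right was not tested.

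CENP-A read profiles of different lines were less alike than those of 1 line under different conditions. Likeness was the Pearson r of log2(reads + 0.5) across the CenU codes that both lines hold, a description across codes that are not independent. In HAC 1-20 the untreated CENP-A profile had r of 0.915 to 0.971 with the 6 CENP-A libraries of the same line under other conditions, and in HAC 4-65 r was 0.923 to 0.951. These conditions were siControl, thymidine, colcemid, colcemid release, siKAT7 and siHJURP. Libraries of 1 line share the copies of its codes, so a higher r within a line was in part fixed by the design. CENP-A reads had r of 0.833 in HAC 4-65 and 0.636 in HAC 1-20 with the mean of the 6 histone modifications of the line. The highest r between lines, each pair over the codes that it shares, was 0.706, from a pair that shares 32 codes. Between HAC 1-20 and HAC 1-8 r was 0.441, but Spearman's rho was 0.141, r of the linear read shares was 0.151 and r over the 62 codes with at least 10 reads in both was 0.279. Among the 4 lines of the longer construct r was 0.547 for HAC 4-65 with HAC 3-6, 0.459 for HAC 3-6 with HAC 4-49, 0.422 for HAC 4-2 with HAC 3-6, 0.416 for HAC 4-65 with HAC 4-49, 0.272 for HAC 4-2 with HAC 4-49 and 0.0564 for HAC 4-2 with HAC 4-65.

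Likeness between lines of different constructs varied widely. Over T065 to T096, r was 0.706 between HAC 1-20 and HAC 4-65 and 0.683 between HAC 1-8 and HAC 4-49, against -0.119 between HAC 1-20 and HAC 4-2. These values cover 32 codes, and those of lines of 1 construct cover 64 or 96. For lines of 1 construct r was not computed over T065 to T096, so the 2 kinds of pairs cannot be compared. Over T065 to T096, HAC 1-20 and HAC 4-65 shared 14 codes at or above the even share, 77.8% and 73.7% of their codes so called. Of all 32 codes, 18 were so called in HAC 1-20 and 19 in HAC 4-65. Every pair of lines, over the codes that it shares, stayed below the lowest within-line value, taken over all codes of the construct.

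**Figure D3:**
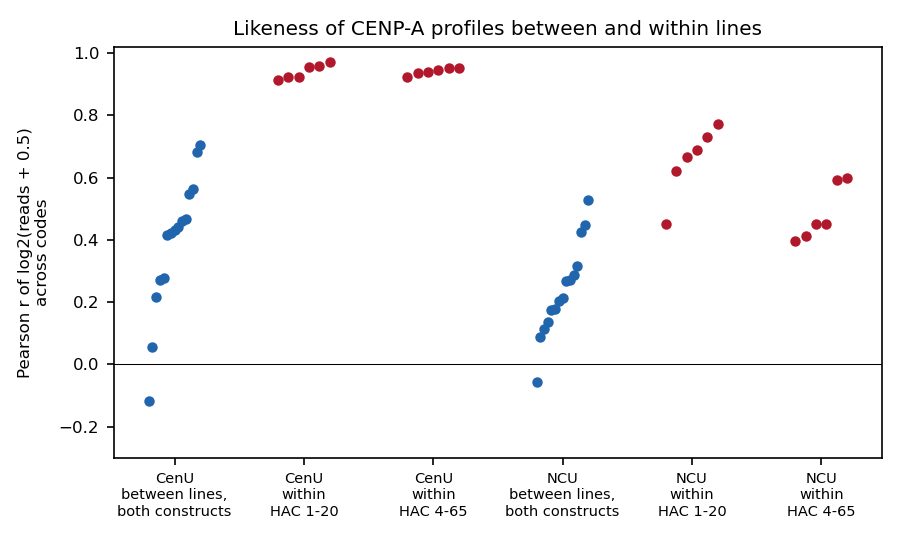
Pearson r of log2(reads + 0.5) across codes (y axis) for the 15 pairs of lines (blue) and for the untreated CENP-A library against the 6 other CENP-A libraries of its line, which come from other conditions (red). Points in a column are sorted by value. For CenU the pairs of lines, each over the codes that it shares, reach 0.706. The within-line values, over all codes of the construct, start at 0.915, while for NCU the 2 kinds overlap. Libraries of 1 line share the copies of its codes.

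Runs and calls by density differed in part from those by reads. In HAC 1-20, 32 codes were at or above the even share by reads and 27 at or above the mean density, with 26 in both, and the longest run by density was T111 to T123 with 13 codes. In HAC 4-65, 37 codes were called by reads and 37 by density, with 30 in both. There the longest run by density was T027 to T051 with 25 codes, which joins T031 to T036 and T039 to T049. T091 and T090, the richest codes of HAC 4-65 at 5.29 and 5.02 times the even read share, were near the mean by density. Across codes r of CENP-A reads with the mean of the modifications was 0.833 in HAC 4-65 and 0.636 in HAC 1-20. The series holds no libraries of histone modifications for the 4 other lines.

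CENP-A reads per code were lower on NCU than on CenU in 5 lines by every measure used. In HAC 4-49 they were higher on NCU by the mean over the construct's codes and lower by the median. Reads per NCU code over reads per CenU code were 0.0573 (0.0569 to 0.0578) in HAC 3-6, 0.0900 (0.0883 to 0.0917) for HAC 4-65, 0.103 (0.100 to 0.105) in HAC 1-20, 0.163 (0.154 to 0.172) in HAC 1-8 and 0.234 (0.227 to 0.242) for HAC 4-2. The ratio was 1.17 (1.16 to 1.17) in HAC 4-49, which is 4.99 to 20.4 times that of the others. The ratio of medians per code gave 0.748 in HAC 4-49, 0.460 for HAC 3-6 and 0.363 in HAC 4-2, and at most 0.140 in the 3 other lines. By medians HAC 4-49 was thus also below 1, and over all listed T and L codes, also those outside the constructs, its ratio was 0.391. That last value is lowered by the many listed L codes outside the construct, so it does not describe the construct's NCU codes. These ratios do not allow for how many copies of each kind a HAC holds. In the untreated libraries of 6 histone modifications the ratio of means was 0.492 to 9.47 in HAC 1-20 and 1.16 to 10.8 for HAC 4-65, all above the CENP-A value of the same line.

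**Figure D4:**
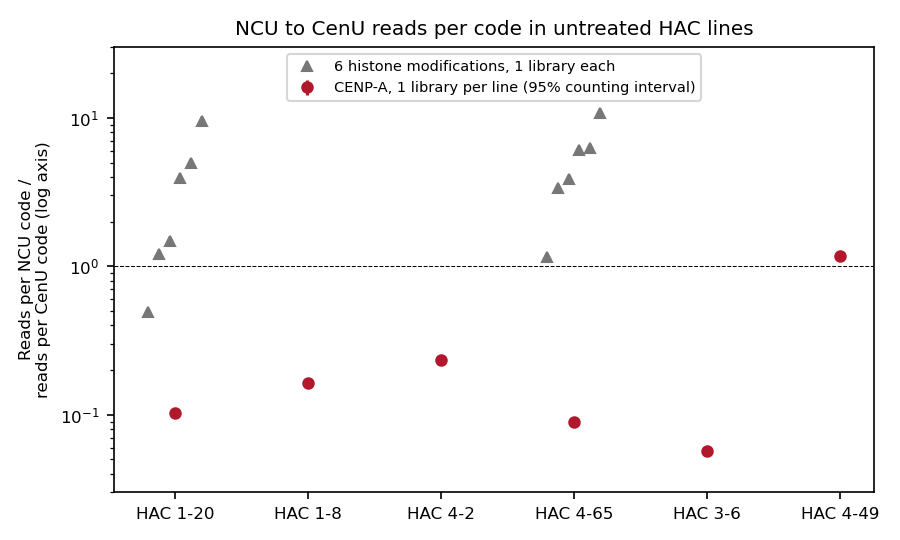
Reads per NCU code over reads per CenU code (y axis, log scale) in the untreated libraries of each line (x axis). Red points are CENP-A with the 95% counting interval, mostly smaller than the point, and grey triangles are 6 histone modifications, which were used in HAC 1-20 and in HAC 4-65 alone. The ratio of means puts the CENP-A point of HAC 4-49 at 1.17, above 1, while its ratio of medians, not plotted, was 0.748.

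Reads on the L codes were spread widely, with the exception of 1 code in HAC 1-20. The effective number of NCU codes, of 96, was 82.5 in HAC 1-8, 74.4 for HAC 4-2, 73.9 in HAC 3-6, 69.1 in HAC 4-65, 64.7 for HAC 4-49 and 58.3 in HAC 1-20. The codes at or above the even NCU share numbered 44 in HAC 1-8 (45.8%), 42 for HAC 4-2 (43.8%), 40 in HAC 3-6 (41.7%), 36 in HAC 4-65 (37.5%), 33 for HAC 4-49 (34.4%) and 28 in HAC 1-20 (29.2%). L039 alone had 1243 reads in HAC 1-20, 15.8% (15.0 to 16.7) of NCU reads and 15.2 times the even share, and without it the effective number was 74.6. Divided by the mean histone modification reads of that line, L039 was still the NCU code with the most CENP-A reads, at 11.8 times the median code. The NCU reads of HAC 4-49 were thus spread less evenly than those of 4 of the 5 other lines, all but HAC 1-20. The lower place of HAC 1-20 rests on L039, as its 74.6 without that code was above the 64.7 of HAC 4-49.

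The richest NCU codes differed by line. After L039, HAC 1-20 had L038 with 318 reads and L007 with 223. HAC 1-8 had L020 and L073 with 41 each and L091 with 40. HAC 4-2 had L068 with 151, L067 with 134 and L027 with 130. HAC 4-65 had L093 with 585, L065 with 551 and L087 with 460, and HAC 3-6 had L043 with 2049, L091 with 1814 and L088 with 1704. In HAC 4-49 L087 was richest with 34173 reads, 4.69% of NCU reads, closely followed by L083 with 34124 and then L075 with 30092. The fewest of that line were on L096 with 274, L053 with 308 and L012 with 685. None of these codes was among the 3 richest in all lines.

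In HAC 4-49 the NCU reads lay toward the end of the numbering. L065 to L095, 31 codes and 32.3% of the 96, held 64.8% (64.7 to 64.9) of its NCU reads, against 53.9% (53.0 to 54.8) in HAC 4-65, 44.5% (42.0 to 47.0) for HAC 1-8, 39.1% (37.7 to 40.6) in HAC 4-2, 37.2% (36.8 to 37.5) in HAC 3-6 and 23.1% (22.1 to 24.0) for HAC 1-20. In HAC 4-49, 25 of these 31 codes were at or above the even share, as were 25 in HAC 1-8 and 5 in HAC 1-20. The runs of HAC 4-49 were L066 to L069, L071 to L075, L077 to L085 and L087 to L091, beside L018 to L020, and the longest, L077 to L085, held 21.5% of its NCU reads. HAC 3-6 had instead a run of 15 codes, L034 to L048, with 30.1%, and HAC 1-20 had L023 to L032 with 16.9% and L034 to L040 with 27.8%. L049 to L064, 16.7% of the codes, held 4.49% in HAC 4-65, 4.93% for HAC 4-49, 6.57% in HAC 1-20, 10.6% in HAC 1-8, 15.1% for HAC 3-6 and 17.6% in HAC 4-2. Both sections were chosen after their values were seen.

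**Figure D5:**
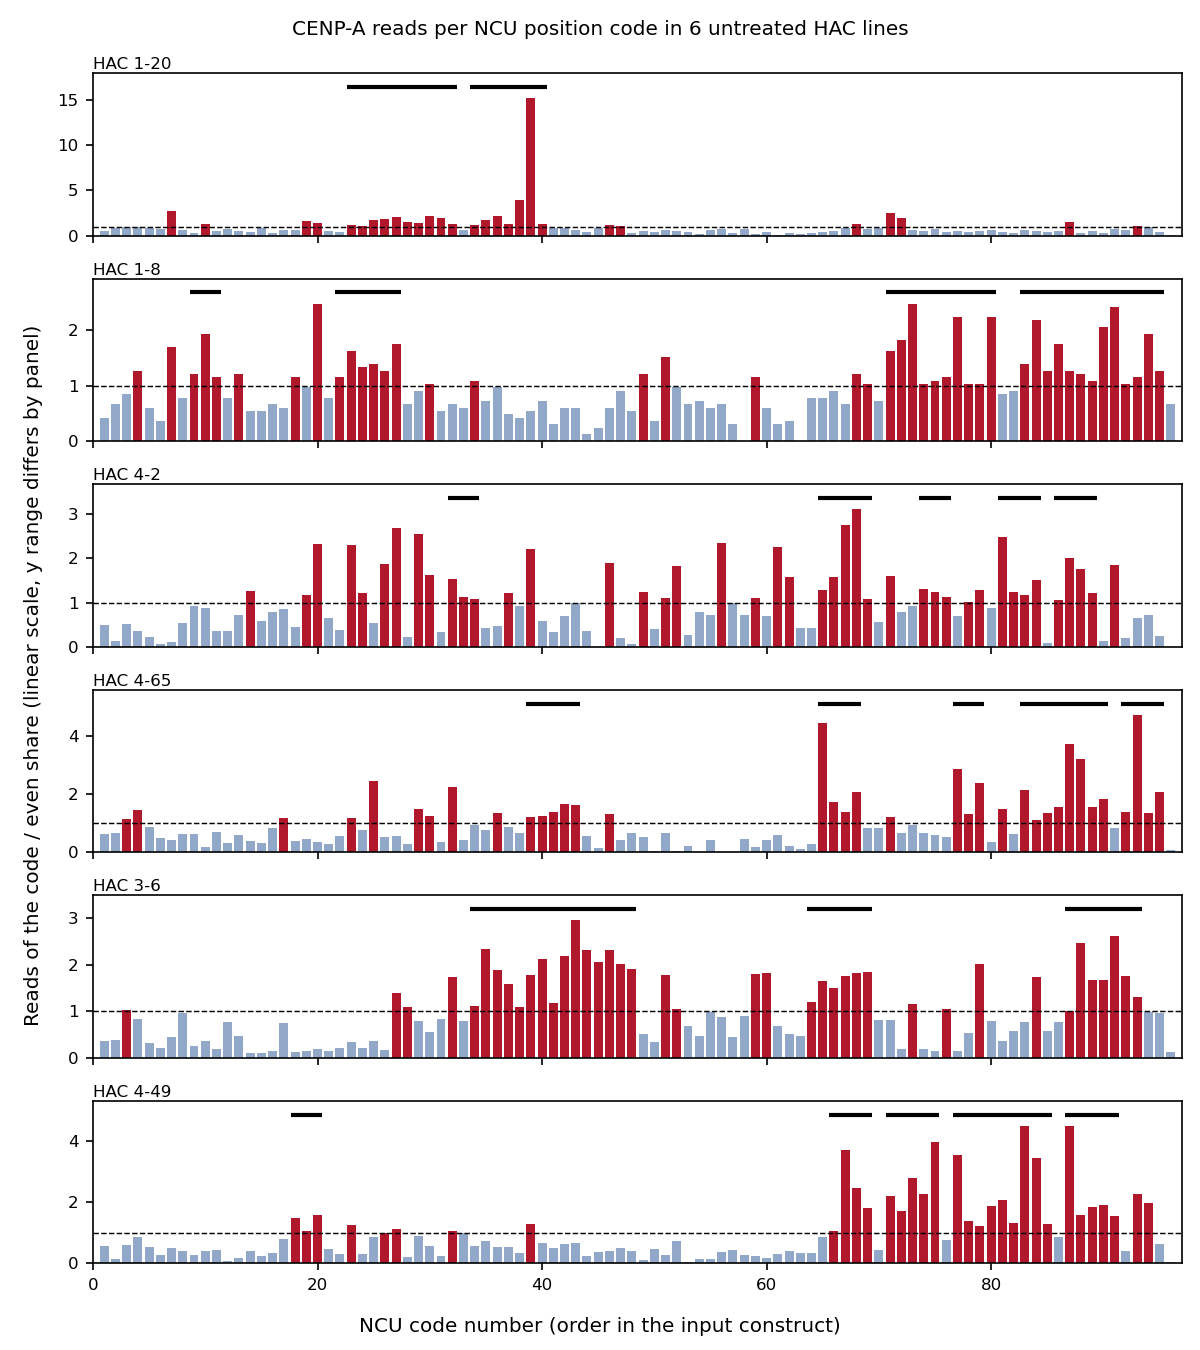
CENP-A reads per NCU code in each line as a multiple of the even share (y axis, linear, range differs by panel) against the code number (x axis). Red bars are at or above the even share (dashed line) and black lines mark runs of 3 or more such codes. L039 stands at 15.2 times the even share in HAC 1-20, and in HAC 4-49 most red bars lie from L065 to L095.

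NCU profiles were little alike between lines. Across the 96 codes r ran from -0.0577 for HAC 1-8 with HAC 3-6 to 0.528 for HAC 4-65 with HAC 4-49. HAC 4-49 also had r of 0.447 with HAC 4-2 and 0.425 with HAC 1-8, but 0.114 with HAC 3-6. Within a line r was 0.450 to 0.773 in HAC 1-20 and 0.397 to 0.599 for HAC 4-65, so NCU profiles also repeated less well within a line than CenU profiles, at fewer reads per code. Only L068 and L087 were at or above the even share in 6 of 6 lines, and 18 codes were so in none, among them L001, L002, L005, L006 and L096.

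The NCU profile of HAC 4-49 was close to that of the histone modifications in HAC 4-65. Across the 96 NCU codes r was 0.803 with the mean of the 6 modifications of HAC 4-65 (0.685 to 0.821 with each), and 0.385 with that of HAC 1-20 (0.320 to 0.469). The CENP-A profile of HAC 4-65 itself had r of 0.681 with the modifications of its line, and HAC 3-6, HAC 4-2 and HAC 1-8 had 0.266, 0.310 and 0.328. Across CenU codes this closeness was not seen, as HAC 4-49 had r of 0.360 with the modifications of HAC 4-65 and HAC 4-65 had 0.833. The modifications of HAC 1-20 and HAC 4-65 had r of 0.430 with each other across NCU codes. What NCU codes HAC 4-49 carries, and in how many copies, was not measured in the libraries used.

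CenU and NCU codes of the same number moved together in some lines. Across code numbers r of log2 reads was 0.479 in HAC 4-65 and 0.404 for HAC 3-6, over 96 numbers each, and -0.0216 in HAC 4-49 and -0.0679 in HAC 4-2. Over the 32 numbers of the shorter construct it was 0.282 in HAC 1-8 and -0.0967 in HAC 1-20. HAC 4-49, with the largest NCU share of CENP-A reads, was thus not among the lines in which the 2 profiles went together.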

How the data were processed

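Each library pools 3 ChIP reactions, which are not replicates. The codes were amplified together with common primers and sequenced. The authors trimmed reads with cutadapt 4.0, matched them to the listed codes with Bowtie and deposited raw read counts per code from SAMtools idxstats, without normalisation. Duplicates made by PCR were not removed. Names T were read as CenU and L as NCU, and the construct of each line was taken from the study's description. The files also list L097 to L384, which were left out of NCU counts except in the CenU share, which uses all T and all L codes. Unmatched reads were left out.

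A code was called at or above the even share of the construct's reads, and runs had at least 3 such neighbours. Profiles used log2(reads + 0.5). No p-values were computed. Named per line were the 5 richest and poorest CenU and the 3 richest and poorest NCU codes, the ends of runs, codes called in all or none of the lines of a construct, and T001 and T072. The members, lists and rules were chosen with earlier results of these data known. The level of outside codes, the steps between neighbours and the stretches other than whole runs were chosen after the values were seen. The scripts, run in Python 3.11.15 with numpy 2.4.6, scipy 1.17.1 and pandas 2.3.3, were tested on simulated data.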

Additional observations from a re-analysis of the deposited data

Results flagged for a closer look

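Reads also fell on L129 to L384, codes outside both the NCU construct and the numbering of the CenU constructs, which were flagged because they lie outside the codes compared. They entered the CenU share, which counts all L codes, and no profile or count of codes. They numbered 46 in HAC 1-20, 28 for HAC 1-8, 85 in HAC 4-2, 150 in HAC 4-65, 64 for HAC 3-6 and 3337 in HAC 4-49. In HAC 4-49, 44 of these codes had more than 3 reads, and L305 had the most with 564. In the 5 other lines 2 to 8 codes had more than 3 reads. What these codes are was not tested.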

How the results depend on the processing

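Of 131 alternatives, 63 moved the value by less than its counting interval (for counts of codes by at most 1.5 times, for r by less than its 95% interval), 66 moved it further and 2 turned its direction. Both of these were the NCU to CenU ratio of HAC 4-49, 1.17 by means over the constructs' codes, which fell below 1 by medians (0.748) and over all T and all L codes (0.391). The latter averages over more L than T codes outside the construct. With unmatched reads in the total the CenU share was 79.3%, 64.5%, 73.8%, 82.3%, 85.3% and 42.1% in HAC 1-20, HAC 1-8, HAC 4-2, HAC 4-65, HAC 3-6 and HAC 4-49, the order of lines used in all lists below. Over the codes of the constructs alone it was 46.1% in HAC 4-49. In the siControl libraries it was 80.6% for HAC 1-20 and 84.6% for HAC 4-65, and the effective number of CenU codes was 47.2 and 59.2. At 1.5 times the even share, 13, 22 and 28 codes passed in HAC 1-8, HAC 4-65 and HAC 4-49, and the longest run was 8, 3, 9, 7 and 5 codes in HAC 1-20, HAC 1-8, HAC 4-2, HAC 4-65 and HAC 4-49. At 2 times the median code, 9, 1 and 14 codes passed in HAC 1-20, HAC 1-8 and HAC 4-49. With 1 poor code allowed the longest run was 30 codes in HAC 1-8 and 37 in HAC 4-49. The inverse Simpson index gave 41.3, 49.5, 45.6, 41.6, 34.4 and 54.3 effective CenU codes and 27.2, 73.8, 63.7, 53.9, 63.5 and 48.7 effective NCU codes. Without the richest code, effective CenU codes were 45.8 (HAC 1-20), 52.9 (HAC 1-8), 52.5 (HAC 4-65), 39.7 (HAC 3-6) and 63.4 (HAC 4-49), and effective NCU codes 74.6 (HAC 1-20), 73.5 (HAC 3-6) and 65.2 (HAC 4-49). With all L codes, effective NCU codes were 65.7, 100.4, 79.3, 73.2, 77.4 and 67.5. By medians per code the NCU to CenU ratio was 0.0691, 0.140, 0.363, 0.0966, 0.460 and 0.748, and over all T and all L codes 0.0518, 0.0844, 0.0794, 0.0304, 0.0192 and 0.391. Steps of 16-fold, added after the data were seen, numbered 5, 0 and 6 in HAC 1-20, HAC 1-8 and HAC 4-2. For HAC 1-20 with HAC 1-8, likeness was 0.141 by Spearman's rho and 0.151 on linear shares, and for HAC 4-2 with HAC 4-65 it was 0.268 over codes with at least 10 reads in both. The cause was not tested.

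With 1 library per line the spread between cultures is unknown, and depth limits HAC 1-8 most, where the even share was 102 reads. No paired analysis was possible because each line had 1 library, all numbered 1, and no result came from a test.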

Other observations

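L097 to L128, which share their numbers with CenU codes of the shorter construct, had 210 reads in HAC 1-20, 93 for HAC 1-8, 13 in HAC 4-2, 46 in HAC 4-65, 536 for HAC 3-6 and 2415 in HAC 4-49. In HAC 1-20 and HAC 1-8 this was 0.924% and 2.56% of the reads on T097 to T128. In HAC 4-49, whose construct holds neither set, L097 to L128 had 2415 reads and T097 to T128 had 2739, with the most on L104 (594) and T107 (566).

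CenU codes outside the construct had more reads where codes of like sequence inside it had more. Across the 32 outside codes r of log2 reads with the summed reads of the construct codes that differ at the fewest bases was 0.890 in HAC 3-6, 0.743 for HAC 4-65, 0.444 in HAC 4-49 and 0.337 in HAC 4-2. In HAC 1-20 and HAC 1-8, over 63 outside codes, it was 0.324 and 0.211. The GC content of the code had r of -0.181 to 0.289 with its reads over both kinds and all 6 lines.

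Neighbouring CenU codes were more alike than neighbouring NCU codes in 4 of the 6 lines. The r of log2 reads between neighbouring CenU codes was 0.7998 in HAC 4-2, 0.661 for HAC 3-6, 0.642 in HAC 4-65, 0.608 in HAC 1-8, 0.529 for HAC 4-49 and 0.481 in HAC 1-20. Between neighbouring NCU codes it was 0.573 in HAC 3-6, 0.535 for HAC 4-49, 0.499 in HAC 1-20, 0.391 in HAC 4-65, 0.339 for HAC 1-8 and 0.147 in HAC 4-2.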
